A study of Mus musculus with 8 samples.

Results

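The endothelium of the liver was followed through 10 marker genes in 8 mouse liver arrays. Sinusoidal markers were Stab1, Stab2, Lyve1 and Clec4g, and general or large-vessel markers were Cdh5, Pecam1, Kdr, Tek, Vwf and Emcn. Members were taken by gene name from the array annotation, and 9 of the 10 had a probe that passed the detection filter (signal well above background, on 4 or more of 8 arrays), all 4 sinusoidal genes and 5 of the 6 general ones. Emcn was above background on 3 arrays and is described apart. In all, 18586 features passed the same filter. Of 14 probes of the members, 12 passed.

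RNA came from livers of male mice in which fibrosis had been induced for 5 weeks with TAA, an agent the labels give only by these letters, or with CCl4, carbon tetrachloride, a liver toxin. Over a further 2 weeks or 1 week, miR-29a or a negative control nucleotide (NC) was injected every 3 days. The 8 groups were, under TAA, miR-29a and NC at 2 weeks and miR-29a and NC at 1 week, and the same 4 under CCl4. Each group was 1 array of 1 liver sample, so that a group has no replicate, and pooling of animals is neither stated nor excluded by the labels. No strain or age is given in the sources used here, every liver had received one of these agents, and no uninjured liver was analysed here.

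Sinusoidal endothelial cells line the hepatic sinusoids. They carry open pores and lack an organised basement membrane, and they clear waste molecules from blood through scavenger receptors such as the stabilins. In chronic liver injury these cells are known to lose their pores and sinusoidal markers and to take on features of ordinary capillaries, a change called capillarisation. The general markers are shared by most blood vessels, and von Willebrand factor is known mainly from larger vessels.

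Levels are log2 intensities relative to the 75th percentile of each array, so 0 is the signal of a bright probe and a difference of 1 is a doubling. Levels were compared between arrays for 1 probe, never between probes. Several arrays stood apart in markers of other cells. The TAA 1-week NC array had a summed linear level of 319.5 (in units of its 75th percentile) over 5 neutrophil genes, against 4.04 to 8.75 on the other arrays, and of 388 over 11 Kupffer cell genes, against 54.2 to 97.8. The CCl4 1-week NC array had 14.8 over 5 mesothelial genes, against 1.63 to 5.77 elsewhere. All 8 hepatocyte markers and all 23 further pan-endothelial markers looked for were measured. The 4 TAA arrays lay in 1 row of the slide and the 4 CCl4 arrays in the other row, so slide row and agent cannot be told apart. Because arrays of whole liver were used, fewer cells of a type and less RNA per cell cannot be told apart either.

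The injected agent was named only as miR-29a. The mature 3p strand of mouse miR-29a in RefSeq (GRCm38.p6, chr6:31062673-31062694, minus strand) is printed here because the oligonucleotide comparison rests on it, with its seed, bases 2 to 8, in capitals. Whether the injected molecule had these exact letters is not given in the sources used here.
mmu-miR-29a-3p: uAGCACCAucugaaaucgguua

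Averaged over the 4 matched pairs, none of the 9 members passed limma's test at an adjusted p of 0.05 for agent, week or oligonucleotide. Over all features the calls were 0 (0%) for each of these effects, with 5331, 965 and 526 features at an unadjusted p under 0.05 for TAA minus CCl4, 2 weeks minus 1 week and miR-29a minus NC. The 2 interaction terms of the oligonucleotide, with agent and with week, also had 0 calls (0%), with 258 and 359 features under that unadjusted p. Calls arose where agent and week were separated. That fit kept an oligonucleotide term, so its spread was how the miR-29a minus NC difference varied between the 4 matched pairs. A miR-29a difference that depended on agent or week thus counted as spread. At 1 week, 2354 features (12.7%) were called higher and 4276 (23.0%) lower under TAA than under CCl4. At 2 weeks 0 were called (0%), with 2095 at unadjusted p under 0.05. Between 2 weeks and 1 week, 184 features (0.990%) were called higher and 16 (0.0861%) lower under CCl4. Under TAA 0 were called (0%), with 5007 at unadjusted p under 0.05. The agent by week term is the TAA minus CCl4 difference at 2 weeks minus that at 1 week. It was called positive for 1025 features (5.51%) and negative for 800 (4.30%). Among the 9 members, 2 were called lower and 0 higher at 1 week, a share close to that over all features. For the agent by week term 1 was called positive, and 0 were called between weeks under either agent in this fit.

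The split of calls at 1 week depended on the scaling. With the 75th percentile 35.5% of them were higher under TAA, against 9.51% with the array median and 61.1% with the 75th percentile of probes detected on all 8 arrays. For the agent by week term the positive share was 56.2%, 84.3% and 41.3% in the same order. The median of all features at 1 week was −0.16 in the main scaling, and it moved by −0.59 and by 0.27 under the other 2 scalings, so the members' differences at 1 week are also given relative to it.

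Lyve1, a hyaluronan receptor of sinusoidal and lymphatic endothelium that some macrophages also carry, had the clearest dependence on agent and week among the used probes of the sinusoidal genes. A Stab2 probe that was not used had larger differences, given below. Lyve1 levels were −0.61 (miR-29a) and −0.58 (NC) on the TAA 2-week arrays and −0.80 and −0.61 on the TAA 1-week arrays. They were −1.38 and −0.72 on the CCl4 2-week arrays, against 0.02 and 0.50 on the CCl4 1-week arrays. Both CCl4 1-week arrays were above the other 6, the 4 TAA arrays lay close together, and both CCl4 2-week arrays lay at or near the low end. At 1 week Lyve1 fell under TAA relative to CCl4 by 0.96 ± 0.19 log2 units (SE, 2 arrays against 2; limma adjusted p = 0.0162), a 1.95-fold lower level. Relative to the median of all features the difference was −0.81. At 2 weeks the difference was 0.46 ± 0.19 (adjusted p = 0.444), and the agent by week term was 1.42 ± 0.27 (adjusted p = 0.0387). Between 2 weeks and 1 week the difference under CCl4 was −1.31 ± 0.19 (adjusted p = 0.0537) and that under TAA was 0.11 ± 0.19 (adjusted p = 0.743). The difference under CCl4 passed with normexp (−0.94; adjusted p = 0.0434), with the array median (−1.53; adjusted p = 0.0433) and with detection on all 8 arrays required (adjusted p = 0.0403).

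The call of Lyve1 at 1 week was lost without either of the NC arrays that stood apart, while the difference stayed close. It was −0.86 without the TAA 1-week NC array (adjusted p = 0.0604) and −0.88 without the CCl4 1-week NC array (adjusted p = 0.094), and −1.05 without the CCl4 1-week miR-29a array (adjusted p = 0.0777). With no filter on dim probes, which raises the number of tests, the same difference had an adjusted p of 0.0522. The agent by week call ended whichever array was left out, with differences of 1.20 to 1.63 and adjusted p of up to 0.151. With all arrays it ended with the 75th percentile of probes detected on all arrays (1.28; adjusted p = 0.0509) and with no filter on dim probes (adjusted p = 0.118). The mesothelial genes were high on the CCl4 1-week NC array, where Lyve1 was highest, and their part in the result was not tested.

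**Figure D1:**
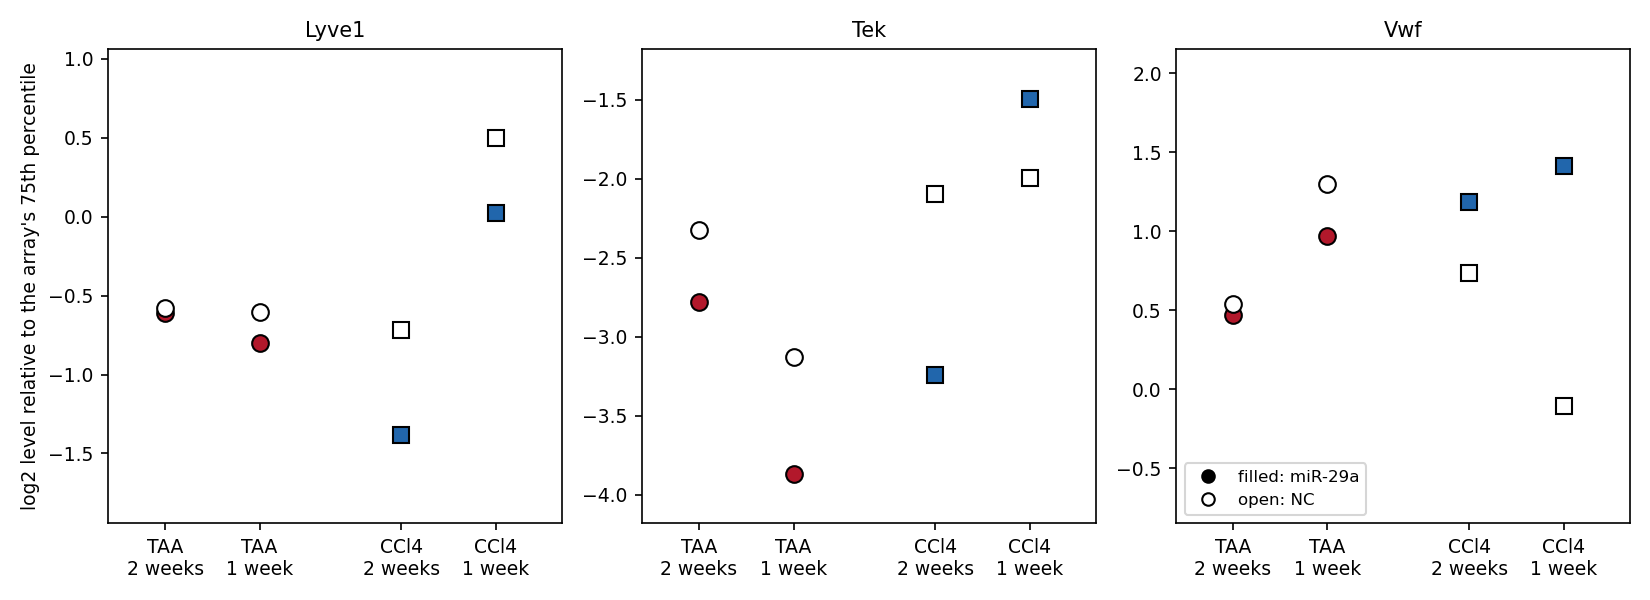
Log2 level of Lyve1, Tek and Vwf (relative to the 75th percentile of the array) on the 8 arrays, by agent and week on the horizontal axis; filled points are miR-29a arrays, open points NC arrays, and each point is 1 array. Lyve1 and Tek were above the TAA 1-week arrays on both CCl4 1-week arrays, and the pair of CCl4 1-week arrays was far apart for Vwf (1.41 and −0.11).

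Stab2, a scavenger receptor that takes up hyaluronan and is a standard marker of sinusoidal cells, had 3 probes, which did not agree. The brightest, used for the gene, read 3.54 (miR-29a) and 3.69 (NC) on the TAA 2-week arrays, 3.31 and 3.76 on the TAA 1-week arrays, 3.25 and 4.01 on the CCl4 2-week arrays and 3.95 and 3.62 on the CCl4 1-week arrays. No agent or week group stood clear of the others, and its 1-week difference was −0.25 ± 0.27 (adjusted p = 0.492). With the mean of the 3 probes in its place, Stab2 was at 0.997 at 1 week (adjusted p = 0.00811) and its agent by week term at −1.17 (adjusted p = 0.0364), both called and both opposite in sign to the used probe, so no direction of Stab2 is drawn. The probe A_55_P2026487 read 0.42 and 0.64 on the TAA 2-week arrays, 1.15 and 1.50 on the TAA 1-week arrays and 0.86 and 0.58 on the CCl4 2-week arrays, against −1.18 and −0.75 on the CCl4 1-week arrays. The CCl4 1-week arrays were thus the low ones for this probe and the TAA 1-week arrays the high ones. The third, A_55_P2026492, read 0.45 and 1.00, then 0.82 and 1.11 under TAA (2 weeks, then 1 week), and 0.98 and 1.09, then 0.10 and −0.08 under CCl4. Again both CCl4 1-week arrays were lowest.

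Taking each of 24890 probes as a feature, A_55_P2026487 rose under TAA at 1 week by 2.29 ± 0.21 (adjusted p = 0.00412), beside 14.0% of all probes called higher there. Its agent by week term was −2.48 ± 0.29 (adjusted p = 0.0243), beside 5.15% of probes called negative. Between 2 weeks and 1 week under CCl4 it rose by 1.68 ± 0.21 (adjusted p = 0.0416; 1.32% of probes higher). That call between weeks was lost in some of the other settings, those with an array left out included. The rise was 1.17 to 1.99 over all of them. The 1-week call of this probe was kept under all 5 other scalings or background settings and without each array in turn, with differences of 1.64 to 2.56. A_55_P2026492 rose by 0.95 ± 0.20 at 1 week (adjusted p = 0.0193), a call lost with the array median (0.36; adjusted p = 0.24), without the CCl4 1-week NC array (0.70; adjusted p = 0.0988) and without the TAA 1-week NC array (0.88; adjusted p = 0.0694). By the coordinates in the files (mm9, minus strand), the used probe lay at chr10:86303982-86304041, A_55_P2026492 lay 77505 bases toward the 5′ side of it at chr10:86381487-86381546, and A_55_P2026487 lay 151275 bases toward the 5′ side at chr10:86455257-86455316. The files tie the used probe to a RefSeq transcript and the other 2 to Ensembl transcripts. No annotation of mm9 was used here, so exon, intron or UTR is not given for any of them.

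**Figure D2:**
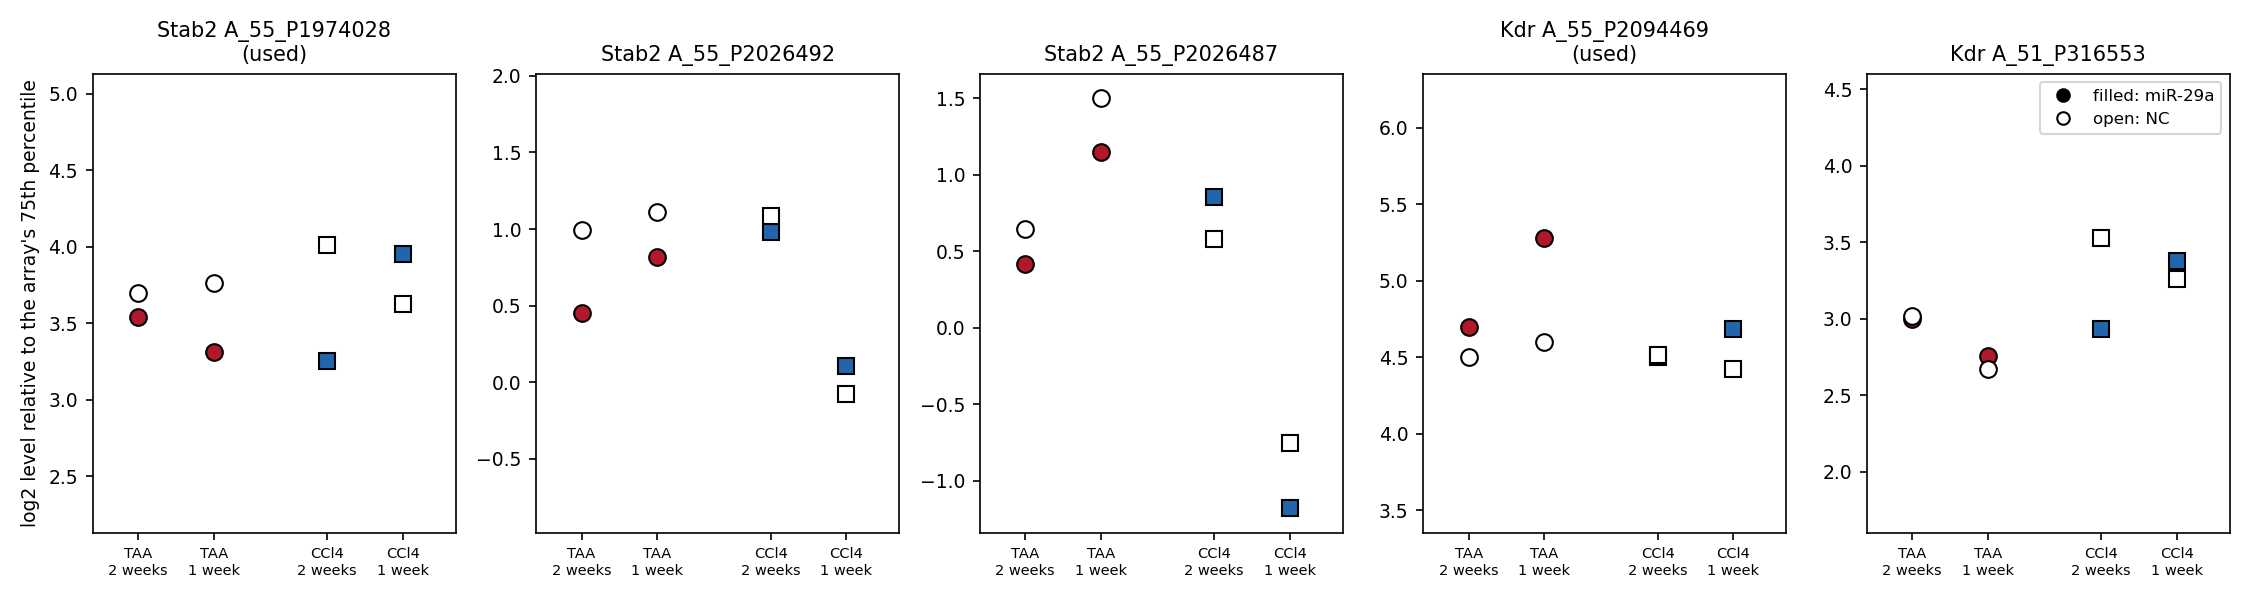
Log2 level of the 3 Stab2 probes and the 2 Kdr probes (relative to the 75th percentile of the array), by agent and week; filled points are miR-29a arrays and open points NC arrays. The used Stab2 probe showed no step between groups, while A_55_P2026487 was lowest on the CCl4 1-week arrays (−1.18 and −0.75) and highest on the TAA 1-week arrays (1.15 and 1.50).

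Clec4g, the C-type lectin LSECtin of sinusoidal cells, read 4.83 (miR-29a) and 5.03 (NC) on the TAA 2-week arrays, 4.34 and 5.01 on the TAA 1-week arrays, 4.44 and 5.06 on the CCl4 2-week arrays and 5.15 and 4.82 on the CCl4 1-week arrays. The 2 low arrays were miR-29a arrays, TAA 1-week and CCl4 2-week, and the agents overlapped. Its 1-week difference was −0.31 ± 0.27 (adjusted p = 0.399). With the array median as the scale, where the median of all features was itself at −0.75, 4 further members passed at 1 week, the sinusoidal Clec4g (−0.90; adjusted p = 0.0278) and Stab2 (−0.85; adjusted p = 0.0365) and the general Cdh5 (−0.91; adjusted p = 0.0317) and Pecam1 (−0.94; adjusted p = 0.00787). Stab1, a scavenger receptor of sinusoidal cells that macrophages also make, read 3.19 and 2.87 on the TAA 2-week arrays, 3.23 and 3.58 on the TAA 1-week arrays, 2.60 and 3.15 on the CCl4 2-week arrays and 2.99 and 2.91 on the CCl4 1-week arrays. It was highest on the TAA 1-week NC array, the array where the Kupffer cell genes were high, and the part of those genes in its level was not tested. Its 1-week difference was 0.45 ± 0.24 (adjusted p = 0.189). Pair by pair it was 0.24 between the miR-29a arrays and 0.67 between the NC arrays.

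Of the 10 members, 6 had a promoter in the RefSeq table (GRCm38.p6). The 250 bases before the gene start are printed for Clec4g and Stab2, whose used probes both read lowest on the TAA 1-week miR-29a and CCl4 2-week miR-29a arrays. The Stab2 probes not used were instead lowest on the CCl4 1-week arrays. Capitals mark AGGAAG, the letters of an ETS factor motif, searched on both strands (as CTTCCT on the other). Of the letters of GATA factor motifs, only AGATAA and TGATAA were searched as well. GATA4 is a known regulator of sinusoidal identity in mice.
Clec4g: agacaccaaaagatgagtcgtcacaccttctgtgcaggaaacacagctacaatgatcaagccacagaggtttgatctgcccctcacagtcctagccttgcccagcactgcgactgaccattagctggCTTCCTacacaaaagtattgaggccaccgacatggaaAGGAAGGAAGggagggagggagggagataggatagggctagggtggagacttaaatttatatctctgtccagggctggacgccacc
Stab2: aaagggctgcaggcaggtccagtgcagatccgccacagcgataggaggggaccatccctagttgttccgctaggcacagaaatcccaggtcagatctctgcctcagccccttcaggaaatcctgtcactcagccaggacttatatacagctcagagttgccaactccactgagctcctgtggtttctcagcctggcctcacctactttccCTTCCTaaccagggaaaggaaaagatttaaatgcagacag

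AGGAAG was present in 4 of these 6 windows (Stab1, Stab2, Clec4g and Emcn) and in 29.5% of 32851 windows of the same length. Kdr and Tek held none. AGATAA and TGATAA were in 0 of the 6, against 9.99% and 7.94% of all windows. Other forms of the GATA motif were not searched, so these windows are not shown to lack a GATA site. The windows are Clec4g at chr8:3720652-3720901 and Stab2 at chr10:87007943-87008192, both on the minus strand.

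Tek, the angiopoietin receptor Tie2, was the general member with the clearest difference between agents. It read −2.78 (miR-29a) and −2.32 (NC) on the TAA 2-week arrays, −3.87 and −3.13 on the TAA 1-week arrays, −3.24 and −2.10 on the CCl4 2-week arrays and −1.49 and −1.99 on the CCl4 1-week arrays. Both CCl4 1-week arrays were above all others, and the probe was not well above background on either TAA 1-week array. Its level there is therefore uncertain. For each dim array the higher of the probe's signal and the lowest signal among probes well above background was taken. By this rule, with the main scaling, mean Tek was 3.09-fold lower under TAA than under CCl4 at 1 week. The value holds for these means and this processing, and is no bound for others. Pair by pair the measured difference was −2.37 between the miR-29a arrays and −1.13 between the NC arrays. The fit gave measured means of −3.50 and −1.74, a difference of −1.75 ± 0.39 (adjusted p = 0.0224), or −1.59 relative to the median of all features. Under TAA, Tek was by the same rule 1.76-fold higher at 2 weeks than at 1 week (adjusted p = 0.195 in the fit). The agent by week term was 1.87 ± 0.55 (adjusted p = 0.0902), and it was called with the array median at 2.28 (adjusted p = 0.0357). The 1-week call ended with normexp background correction (−0.42; adjusted p = 0.0797), with no filter on dim probes (adjusted p = 0.0608), without either TAA 1-week array (NC, −1.94 and adjusted p = 0.06; miR-29a, −1.57 and adjusted p = 0.0808) and on removal of the CCl4 1-week miR-29a array (−1.11; adjusted p = 0.0746). Emcn, the mucin endomucin of capillary and venous endothelium, was well above background on both CCl4 1-week arrays (−2.53 and −2.75) and on the CCl4 2-week NC array (−2.53), and on no TAA array. By the same rule, and with the same limits, it was 1.66-fold lower on the TAA 1-week arrays than on the CCl4 1-week arrays, a value with no test.

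The probes of Tek, Pecam1 and Kdr are printed to show which stretch of each message was read; Tek carried the call, Kdr was read by a pair of probes that disagreed, and Pecam1 is the most widely used of these markers. The Tek probe lies at chr4:94540624-94540683 (plus strand), the Pecam1 probe at chr11:106540864-106540923 and the Kdr probe at chr5:76330395-76330454 (both minus strand), all mm9 by the files.
Tek: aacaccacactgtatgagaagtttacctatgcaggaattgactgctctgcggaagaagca
Pecam1: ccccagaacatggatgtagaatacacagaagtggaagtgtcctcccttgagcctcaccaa
Kdr: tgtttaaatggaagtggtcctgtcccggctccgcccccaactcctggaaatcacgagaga

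Kdr, the main VEGF receptor of endothelium, was read by 2 probes with opposite differences between agents. The used probe A_55_P2094469 read 4.70 (miR-29a) and 4.50 (NC) on the TAA 2-week arrays, 5.28 and 4.60 on the TAA 1-week arrays, 4.50 and 4.51 on the CCl4 2-week arrays and 4.68 and 4.42 on the CCl4 1-week arrays. It was highest on the TAA 1-week miR-29a array. The other probe, A_51_P316553 (10 spots), which lies 1086 bases toward the 3′ side, read 3.00 and 3.02, then 2.76 and 2.67 under TAA (2 weeks, then 1 week), and 2.93 and 3.53, then 3.38 and 3.26 under CCl4. Its 1-week difference was −0.60 ± 0.22 (adjusted p = 0.078), that of the used probe 0.39 ± 0.19 (adjusted p = 0.169). The used probe passed with the 75th percentile of probes detected on all arrays (0.66; adjusted p = 0.0345), with quantile normalization (0.73; adjusted p = 0.0292) and without the TAA 1-week NC array (0.66; adjusted p = 0.0434), and was at −0.21 with the array median. Over all 4 pairs they were −0.41 ± 0.18 and 0.24 ± 0.16, and neither passed. No direction of Kdr between the agents is drawn from these 2 probes.

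Cdh5, VE-cadherin of endothelial junctions, read 1.01 (miR-29a) and 1.12 (NC) on the TAA 2-week arrays, 0.62 and 1.74 on the TAA 1-week arrays, 0.93 and 1.55 on the CCl4 2-week arrays and 1.53 and 1.47 on the CCl4 1-week arrays. Its lowest and its highest array were the pair of TAA 1-week arrays. Pecam1, the adhesion molecule CD31, read −2.05 and −1.84, then −2.38 and −1.85 under TAA (2 weeks, then 1 week), and −2.28 and −2.08, then −1.73 and −1.81 under CCl4. Its agents overlapped, and its 1-week difference was −0.35 ± 0.18 (adjusted p = 0.179). It also passed with quantile normalization (−0.72; adjusted p = 0.0349), beside the array median given above. Vwf, which platelet precursors also make, read 0.47 and 0.54 on the TAA 2-week arrays, 0.97 and 1.30 on the TAA 1-week arrays, 1.18 and 0.74 on the CCl4 2-week arrays and 1.41 and −0.11 on the CCl4 1-week arrays. The CCl4 1-week arrays held both its highest and its lowest value, a gap wider than any between agents or weeks. Summed over 3 platelet genes, the linear level was 1.49 and 1.78 on the TAA 2-week arrays, 1.105 and 3.48 on the TAA 1-week arrays, 1.83 and 3.31 on the CCl4 2-week arrays and 2.17 and 2.14 on the CCl4 1-week arrays, and their part in the Vwf level was not tested.

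**Figure D3:**
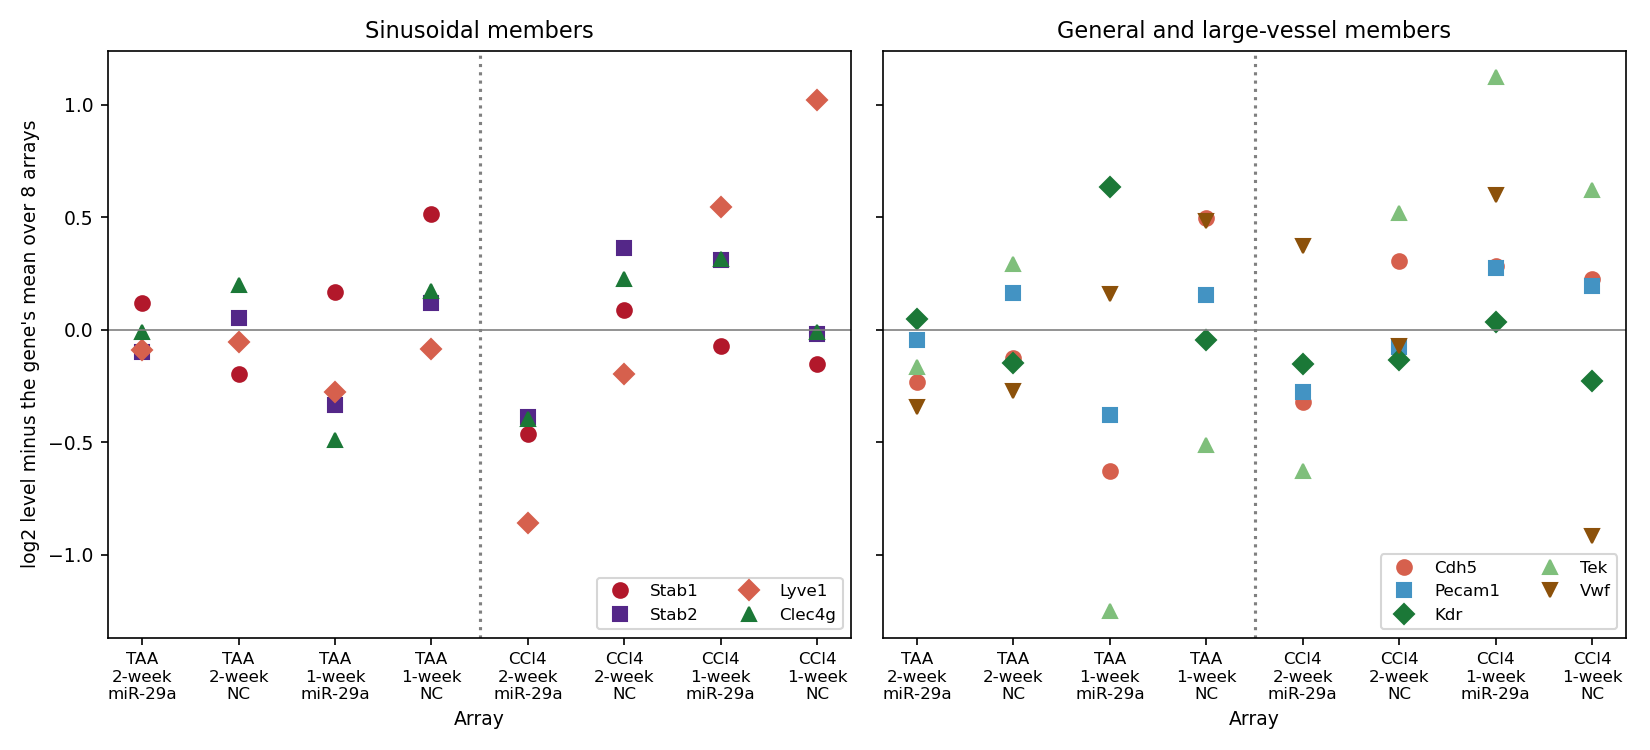
Log2 level of each member minus its own mean over the 8 arrays, with sinusoidal members on the left and general or large-vessel members on the right; each point is 1 array and the dotted line divides TAA from CCl4. The CCl4 2-week miR-29a array was below the gene's mean for 8 of 9 members, and the CCl4 1-week miR-29a array was below it for 1 of 9.

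The CCl4 2-week miR-29a array was below the gene's mean for 8 of 9 members and the TAA 2-week miR-29a array for 7 of 9. The TAA 1-week miR-29a array was below it for 5 of the 8 members well above background there, with Tek not measured, and was the lowest array for 3 of them. The CCl4 1-week miR-29a array was below it for 1 of 9 and the highest for 4. Among 16240 other genes well above background on all 8 arrays, those whose levels followed the mean of the sinusoidal members most closely were Icam2 (Pearson r = 0.97, Spearman rho = 0.90, n = 8 arrays), an adhesion molecule of endothelium, Cd38 (r = 0.95), Hip1 (r = 0.93) and Dip2b (r = 0.92), beside 1 transcript without a gene symbol. Without the 2 arrays farthest from the median, both miR-29a arrays, r was 0.90 for Icam2, 0.82 for Cd38, 0.71 for Hip1 and 0.98 for Dip2b. The genes closest to the mean of the general members were Ift43 (r = 0.96), Akt1 (r = 0.94), Snhg1 (r = 0.93) and Ednrb (r = 0.92), beside 1 unnamed transcript, and r without the 2 farthest arrays was 0.77, 0.85, 0.77 and 0.71. These are descriptions over arrays that share a slide, a scaling and a scan. The genes were picked from 16240 by r over these same arrays, so their r, also without the 2 arrays, is no separate support.

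The sinusoidal genes were set against the general ones as a difference of differences, since each probe has its own brightness. For TAA minus CCl4 the mean of the 4 sinusoidal differences was −0.04 and that of the 5 general ones −0.17 over the 4 pairs, and their gap was 0.14 ± 0.27 (SD, n = 4 pairs). The gap was 0.46 in the 2-week miR-29a pair, 0.00 in the 2-week NC pair, 0.25 in the 1-week miR-29a pair and −0.16 in the 1-week NC pair. For 2 weeks minus 1 week the gap was −0.08 ± 0.12 (SD, n = 4 pairs), with 1 of 4 pairs above 0, and for miR-29a minus NC it was −0.16 ± 0.26, again with 1 of 4 above 0. With Tek left out the gaps were −0.026, −0.049 and −0.26 for agent, week and oligonucleotide. The last was as large as the spread of 0.26 over all 9 members, and the spread without Tek was not taken. With 1 probe per gene, each gap over all 9 members was smaller than its spread between pairs. So read, the sinusoidal genes did not separate from the general ones beyond that spread by agent, week or oligonucleotide. With the mean of a gene's passing probes, which changes Stab2 and Kdr, the agent gap was 0.34, above the 0.27. The spread in that setting was not taken, so the agent gap is not settled, and neither is the oligonucleotide gap with Tek left out.

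Between miR-29a and NC the members lay mostly lower in 3 of the 4 pairs and mostly higher in the fourth. In the TAA 2-week pair 7 of 9 were lower on the miR-29a array and 0 passed a 1.5-fold change, beside 3.73% of all features past 1.5-fold lower and 5.19% past 1.5-fold higher. In the TAA 1-week pair, where Tek was not well above background on either array and is left out, 7 of 8 were lower, 2 of them past 1.5-fold (Cdh5 −1.12, Clec4g −0.66; 11.2% of all features), and Kdr was past 1.5-fold higher at 0.68 (13.0%). In the CCl4 2-week pair 8 of 9 were lower, 5 of them past 1.5-fold (Tek −1.15, Stab2 −0.76, Lyve1 −0.67, Cdh5 −0.62, Clec4g −0.62; 3.88%), and 0 were past 1.5-fold higher (3.45%). In the CCl4 1-week pair 8 of 9 were higher, and only Vwf, at 1.52, passed 1.5-fold (3.71%), while 0 passed it downward (5.56%). These are single arrays against single arrays, with no test within a pair. The Kdr probe not used, A_51_P316553, was at 0.087 in the TAA 1-week pair. In the CCl4 2-week pair it was at −0.60, where the used Kdr probe was at −0.015. The Stab2 probes not used were at 0.28 (A_55_P2026487) and −0.11 (A_55_P2026492) in the CCl4 2-week pair. With normexp 2 members passed 1.5-fold lower in the CCl4 2-week pair and Kdr did not pass 1.5-fold higher in the TAA 1-week pair, nor did it with quantile normalization or the 75th percentile of probes detected on all arrays.

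The median of the member differences was −0.11, −0.40, −0.62 and 0.26 in the order of the pairs above, where the median of all features was −0.02, 0.13, 0.00 and 0.02. Averaged over the 4 pairs, Cdh5 was at −0.45 ± 0.21, Tek at −0.46 ± 0.45 (a value that includes its unmeasured pair), Lyve1 at −0.34 ± 0.31, Clec4g at −0.29 ± 0.21, Stab2 at −0.26 ± 0.19, Pecam1 at −0.22 ± 0.18 and Stab1 at −0.12 ± 0.18 (SE). Kdr was at 0.28 ± 0.16 and Vwf at 0.39 ± 0.35, and the adjusted p was 1 for all 9 members. The Kdr probe not used was at −0.10 ± 0.18, so no direction of Kdr between the oligonucleotides is drawn. With Tek counted in each pair, the count of lower members was the same under every other scaling tried in 3 of the pairs, and in the TAA 2-week pair it was 5 of 9 with the 75th percentile of probes detected on all arrays.

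**Figure D4:**
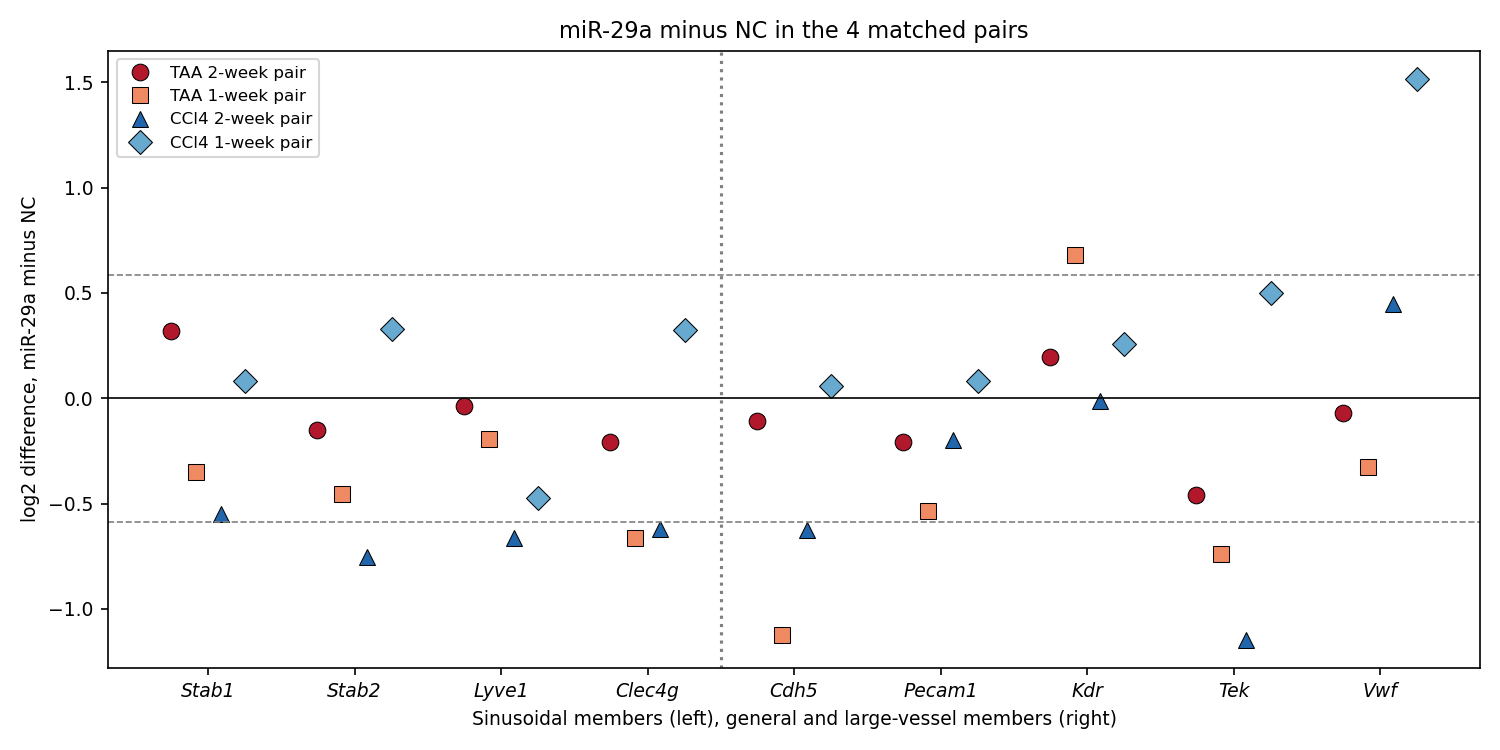
Log2 difference, miR-29a minus NC, of the 9 members in the 4 matched pairs, with sinusoidal members left of the dotted line and a 1.5-fold change at the dashed lines; each point is 1 array minus 1 array. Points of the CCl4 2-week and TAA 1-week pairs lie mostly below 0 (8 of 9 and, without the unmeasured Tek, 7 of 8), and those of the CCl4 1-week pair mostly above 0 (8 of 9).

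Of a longer list of sinusoidal genes, 12 of 13 measured were lower under TAA than under CCl4 at 1 week, with a median of −0.71 against −0.16 for all features. Of all features, 41.1% were higher there. Of the 13, 2 were called lower, where 23.0% of all features were. They were Oit3, a secreted protein of sinusoidal cells (−1.10 ± 0.24; adjusted p = 0.0226), and Gpr182, an atypical chemokine receptor (−0.89 ± 0.22; adjusted p = 0.0304). Oit3 read 1.55 and 1.87 on the TAA 2-week arrays (miR-29a, then NC), 1.20 and 1.48 on the TAA 1-week arrays, 1.29 and 2.17 on the CCl4 2-week arrays and 2.49 and 2.39 on the CCl4 1-week arrays, so that both CCl4 1-week arrays were the highest. The mannose receptor Mrc1 (−0.89; adjusted p = 0.0606), the Fc receptor Fcgr2b (−0.89; adjusted p = 0.0528) and the trafficking protein Ehd3 (−0.83; adjusted p = 0.0711) did not pass. Nor did the transcription factor Maf (−0.34; adjusted p = 0.223) or the lysine-degrading enzyme Aass, which hepatocytes also make (−0.32; adjusted p = 0.164). Both calls ended with the 75th percentile of probes detected on all arrays (Oit3, adjusted p = 0.053; Gpr182, adjusted p = 0.109), where 11 of 13 were lower with a median of −0.44 against 0.11. Without the TAA 1-week NC array 13 of 13 were lower (median −0.48), and without the CCl4 1-week NC array 13 of 13 (median −0.90). At 2 weeks 8 of 13 were lower with a median of −0.03 against −0.08 for all features, and 0 were called.

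**Figure D5:**
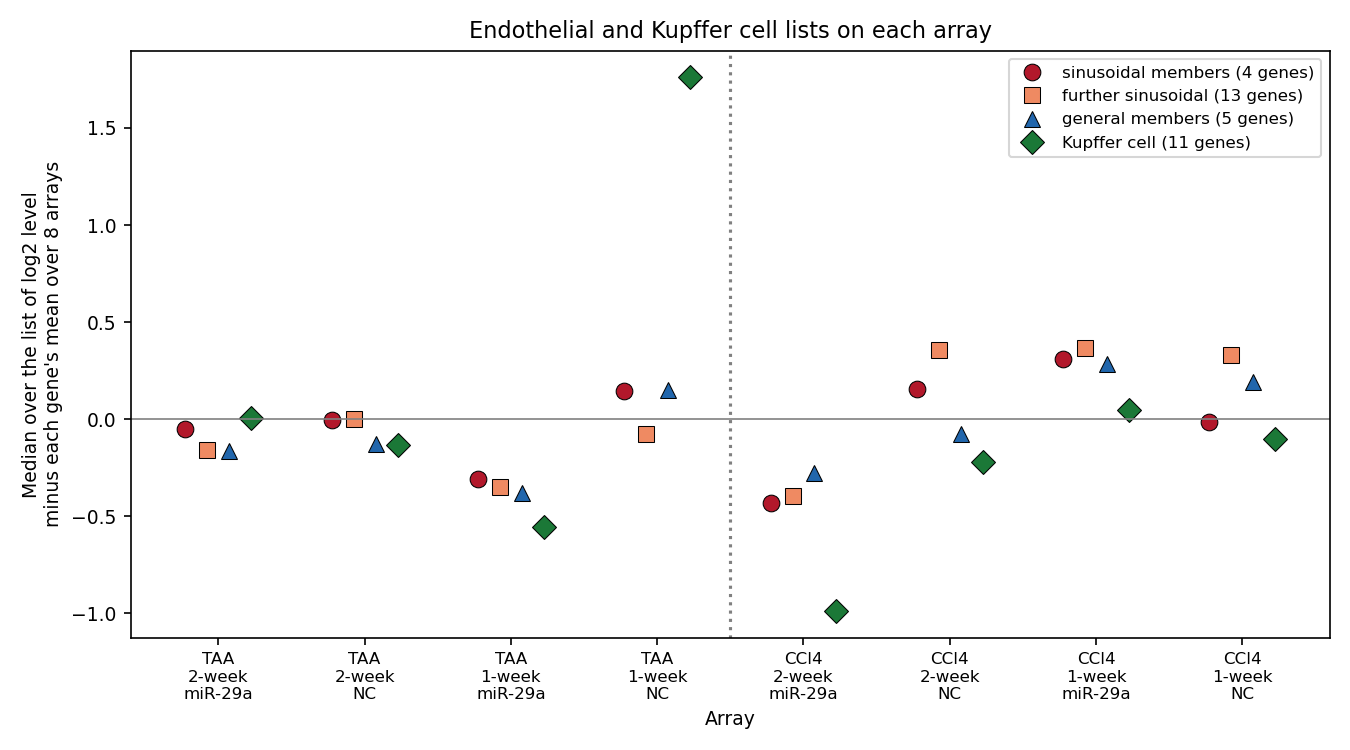
Median over each gene list of the log2 level minus the gene's mean over the 8 arrays, for the sinusoidal members, a longer sinusoidal list, the general members and the Kupffer cell list; each point is 1 array. The longer sinusoidal list was above 0 on 3 of the 4 CCl4 arrays (0.33 to 0.36), and the Kupffer cell list stood at 1.76 on the TAA 1-week NC array.

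Kupffer cells also make Mrc1 and Fcgr2b, and the Kupffer cell genes ran the other way at 1 week. All 11 measured were higher under TAA (median 0.78), 0 passed the test, and without the TAA 1-week NC array 10 of 11 were lower (median −0.40). Their summed linear level was 95.0 and 86.4 on the TAA 2-week arrays (miR-29a, then NC), 77.8 and 388 on the TAA 1-week arrays, 54.2 and 82.7 on the CCl4 2-week arrays and 97.8 and 81.4 on the CCl4 1-week arrays. The part of these cells in the sinusoidal genes was not tested.

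Of 23 further pan-endothelial genes, 17 were lower under TAA at 1 week (median −0.29), a count that was 12 with the 75th percentile of probes detected on all arrays and 22 with the array median. Of the 23, 2 were called lower and 1 higher, where 23.0% of all features were called lower and 12.7% higher. The endothelial transcription factor Sox18 (−1.20 ± 0.16; adjusted p = 0.00609) and the junction lectin Clec14a (−1.40 ± 0.27; adjusted p = 0.016) fell, and S1pr1, a receptor for sphingosine-1-phosphate, rose by 0.80 ± 0.19 (adjusted p = 0.0293). The brightest of the list, Egfl7 (0.36; adjusted p = 0.198), Ptprb (−0.32; adjusted p = 0.231) and Gpihbp1 (−0.64; adjusted p = 0.11), did not pass. Sox17, a factor of arterial endothelium, had a negative agent by week term (−1.56 ± 0.26; adjusted p = 0.033), with −2.15 and −1.99 on the TAA 2-week arrays, −1.59 and −1.37 on the TAA 1-week arrays, −1.07 and −1.09 on the CCl4 2-week arrays and −1.87 and −2.25 on the CCl4 1-week arrays. The weeks thus ran in opposite order under the 2 agents for Sox17. It was 1 of 23 with a negative call of that term, beside 4.30% of all features. Its call was lost on removal of any 1 of the 6 arrays other than the TAA 1-week arrays (adjusted p of 0.0773 to 0.156).

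Of 13 measured genes of large vessels, arteries or capillarised endothelium, 9 were higher under TAA at 1 week with a median of 0.43, where all features had −0.16. Of the 13, 2 were called higher and 1 lower, where 12.7% of all features were called higher and 23.0% lower. Ly6c1, an antigen of capillary endothelium and of monocytes (1.56 ± 0.42; adjusted p = 0.0386), and the arterial connexin Gja5 (0.97 ± 0.24; adjusted p = 0.0315) rose, and the arterial ligand Efnb2 fell by 0.98 ± 0.25 (adjusted p = 0.0329). Plvap, the diaphragm protein of fenestrated capillaries (0.03; adjusted p = 0.906), and the venous receptor Ephb4 (0.49; adjusted p = 0.0703) did not pass. Without the TAA 1-week NC array 6 of 13 were higher and the median was −0.04, and with the array median 3 of 13 were higher, so the direction of this list is not settled. Among central vein genes, Thbd, the thrombin receptor thrombomodulin, fell by 0.86 ± 0.23 (adjusted p = 0.0375) and Rspo3 (−0.51; adjusted p = 0.11) and Kit (0.08; adjusted p = 0.835) did not pass, with 4 of 6 lower. Of 3 lymphatic genes, Reln, which stellate cells also make, rose by 0.85 ± 0.18 (adjusted p = 0.0202), while Prox1 (−0.50; adjusted p = 0.216) and Pdpn (−1.19; adjusted p = 0.327) did not pass. Thbd was thus 1 of 6 called lower and Reln 1 of 3 called higher, beside the shares of all features given above.

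Of 10 measured genes of the VEGF and angiopoietin pathways, 2 were called higher under TAA at 1 week and 0 lower. Of all features, 12.7% were called higher and 23.0% lower. Of the 10, 8 lay lower, with a median of −0.32. The ligand Vegfa read 3.59 (miR-29a) and 3.21 (NC) on the TAA 2-week arrays, 3.98 and 3.48 on the TAA 1-week arrays, 3.29 and 3.29 on the CCl4 2-week arrays and 3.01 and 2.78 on the CCl4 1-week arrays. Both CCl4 1-week arrays were lowest and the rise at 1 week was 0.84 ± 0.16 (adjusted p = 0.0158). Vegfd, a ligand of lymphatic growth, rose by 1.30 ± 0.38 (adjusted p = 0.047). Both calls ended with the array median (Vegfa 0.24, adjusted p = 0.315; Vegfd 0.70, adjusted p = 0.139). The ligands Vegfb (−0.41; adjusted p = 0.0624), Vegfc (−0.14; adjusted p = 0.597), Angpt1 (−0.90; adjusted p = 0.16) and Angpt2 (−0.995; adjusted p = 0.43) did not pass. Nor did the receptors Flt1 (−0.22; adjusted p = 0.439), Tie1 (−0.08; adjusted p = 0.79), Nrp1 (−0.61; adjusted p = 0.357) and Nrp2 (−0.67; adjusted p = 0.0621). Of the 12 genes of these further endothelial and ligand lists that were called at 1 week, between 6 (array median) and 12 (deposited matrix) kept the call under other background or scaling settings. Each of these 12 calls ended on removal of the CCl4 1-week miR-29a array. Some of the 12 were also lost on removal of each other single array. Their signs stayed the same throughout, which is no separate support, since the genes were chosen by a call in these same arrays.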

How the data were processed

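Per the file headers, spot intensity values were extracted by the authors with Agilent Feature Extraction 10.10.1.1, background-subtracted, with no scaling between arrays. A log2 matrix was deposited too, and how it was made is not given; each column equalled the log2 processed signal minus 1 constant (within 0.01 for 100% of 55657 probes), with column medians of −3.45 to −4.06. The deposited flags mark spots well above background, saturated or outlying.

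Outlier-marked and control spots were dropped, repeated spots averaged, and log2 processed signals scaled to the 75th percentile of their array. A probe had to be well above background on 4 or more of 8 arrays, and the brightest such probe stood for its gene. Between 43.9% and 48.4% of spots per array were well above background, 0 were saturated, and precision is limited by how few arrays there are. Symbols came from the files and, for 27641 probes by accession and 3400 by symbol, from a RefSeq table of GRCm38.p6.

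Model fits used limma 3.58.1 (R 4.3.3, files read with data.table, version 1.17.8) over 18586 features and adjusted by Benjamini-Hochberg, with agent, week and oligonucleotide as additive terms (4 residual degrees of freedom) or with an added agent by week term (3). The p-values measure the spread between these samples, which may be technical. The fitting code was tried on simulated arrays with independent errors and known changes. That trial does not bear on scaling, slide row or the large share of calls at 1 week. Members and lists were chosen with earlier results of these data known. The text names every member, all measured VEGF and angiopoietin genes, the 3 brightest and every called gene of the other endothelial lists, and the 5 genes most like each class mean; a few others (Mrc1, Fcgr2b) were named after their values were seen. Alternatives were normexp (offset 50), other scalings, the deposited matrix, no or a stricter filter on dim probes, the mean of a gene's probes, a block, and leaving out arrays or pairs.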

Additional observations from a re-analysis of the deposited data

Results flagged for a closer look

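The difference between TAA and CCl4 in Lyve1 differed between the weeks by a test of that difference, the agent by week term, at 1.42 (adjusted p = 0.0387), and the call ended without any 1 of the 8 arrays.

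With each probe as a feature, the agent by week term also passed for 2 Stab2 probes that were not used for the gene, at −2.48 for A_55_P2026487 (adjusted p = 0.0243) and −1.26 for A_55_P2026492 (adjusted p = 0.0499), while that of the used probe was 0.24 (adjusted p = 0.707). Taken as the mean of its 3 probes, the gene was at −1.17 (adjusted p = 0.0364). The term of A_55_P2026487 kept its call without either TAA 1-week array and lost it without each of the other 6 arrays, and that of A_55_P2026492 lost it without any 1 array.

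The second Vwf probe, A_55_P2169659, was under the detection filter and entered no comparison. It was well above background on the TAA 2-week miR-29a array alone, at −1.99, against −4.87 on its NC partner, which was not above background.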

How the results depend on the processing

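The members were followed in 43 results, the averaged effects, the 1-week differences and the other agent and week values printed. Of 365 values under other settings with all arrays, 320 kept direction and side of the threshold, 29 turned sign, 5 lost and 11 gained a call; of 452 with arrays left out, 392, 45, 14 and 1 did. The cause was not tested. For TAA minus CCl4, 6 features were called with normexp, 5470 with the array median, 6 with the 75th percentile of probes detected on all arrays, 11 with quantile normalization and 6 with detection on all 8 arrays required. At 1 week 11821 were called with the array median and 3891 with no filter, and at 2 weeks 11 with no filter. Between weeks under CCl4 it was 305 with the array median, 317 with the percentile of detected probes, 0 with quantile normalization and 1 with no filter. Under TAA it was 2561 with normexp, 764 with the array median, 6 with no filter and 817 with detection on all 8 arrays. The agent by week term had 3438 with normexp, 3424 with the array median and 0 with no filter.

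Signs turned mostly for small, uncalled values. For TAA minus CCl4, normexp gave Pecam1 0.015 and Vwf −0.037, and the array median Stab1 −0.090, Kdr −0.15 and Vwf −0.38. The percentile of detected probes gave Stab2 0.070, Clec4g 0.14 and Pecam1 0.15, and quantile normalization Stab2 0.085 and Clec4g 0.19. The mean of passing probes gave Stab2 0.41 and Kdr −0.086. For 2 weeks minus 1 week, normexp gave Stab2 0.038 and Tek −0.12, the array median Clec4g −0.0056 and Tek −0.0054, the percentile of detected probes Clec4g −0.0149 and Tek −0.0147, quantile normalization Clec4g −0.0119, and the mean of passing probes Stab2 0.27. At 1 week the array median gave Stab1 −0.14, Kdr −0.21 and Vwf −0.11, the percentile of detected probes Stab2 0.020, quantile normalization Stab2 0.047 and Clec4g 0.031, and the mean of passing probes Stab2 0.997 and Kdr −0.11; it gave −1.17 for the agent by week term of Stab2. The gap of sinusoidal over general genes between weeks was 0.12 with Lyve1 and Stab1 left out.

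With arrays or pairs left out, calls ranged from 1762 (without CCl4 1-week miR-29a) to 7456 (without TAA 1-week miR-29a) at 1 week, 0 to 503 between weeks under CCl4, 0 to 850 under TAA and 0 to 2390 for agent by week. For TAA minus CCl4, Stab2 ranged from −0.29 to 0.045, Lyve1 −0.60 to 0.029, Clec4g −0.22 to 0.18, Pecam1 −0.15 to 0.14 and Vwf −0.45 to 0.25. For 2 weeks minus 1 week, Stab2 ranged from −0.18 to 0.18, Clec4g −0.15 to 0.25, Pecam1 −0.27 to 0.029, Tek −0.35 to 0.59 and Vwf −0.56 to 0.14. At 1 week, Stab2 ranged from −0.64 to 0.14, Clec4g −0.72 to 0.10, Cdh5 −0.77 to 0.13 and Vwf −0.27 to 1.23. Lyve1 between weeks under TAA ranged from −0.097 to 0.31, and the agent by week term of Stab2 from −0.15 to 0.63. For miR-29a minus NC, Stab1 ranged from −0.27 to 0.019 and Vwf −0.0067 to 0.69. Where 1 array was left in a group, it was assumed to vary like the others. With matched combinations as a block, 0 features were called for agent, week or oligonucleotide. A slide block was not run because slide row and agent coincide, and the probe and list settings and the leaving out of Tek were chosen after seeing the data. Signals near background, such as Tek and Emcn, limit what can be read.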
